A study of Oryza sativa with 6 samples.

Results

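A set of 53 probe sets of the rice array, out of 57194 that are not controls, was low in OsUBA RNAi seedlings only. They were chosen from the deposited log2 values by 3 conditions. The lowest of the 4 overexpression and wild-type arrays lay at least 1.5 log2 units above the higher RNAi array, the overexpression and wild-type means lay less than 0.5 apart, and the wild-type mean was 8 or more. Probe sets of genes named CESA, LAC, KIN or IAA were left out, which removed 1 probe set, that of the laccase LAC4. Of the 53, 43 map to 1 gene each in the annotation of the array, 38 genes in all, and 10 map to no listed gene. Of the 38 genes, 8 have a gene name there, and the other 30 are called by their locus identifier.

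The study measured transcripts in rice seedlings with 4 leaves (Oryza sativa) on 1-colour Affymetrix arrays, with total RNA from plants kept at 28 °C without treatment. The 3 groups of 2 biological replicates each were OsUBA-RNA interferenced plants (RNAi, in which a double-stranded RNA is made against a gene to lower its transcript), OsUBA-overexpressing plants (OX) and wild type (WT), titled cv. Nipponbare. The labels give neither the promoters nor the number of lines behind the 2 transgenic groups, nor whether plants were pooled, and they name no plants transformed without an OsUBA construct. The p-values therefore measure the spread between these samples. OsUBA is not among the gene names used here, so its own level was not analysed here. All values below are deposited log2 values or differences between them, and group values are means ± SD (n = 2). Array medians over all 57194 probe sets lay between 5.67 and 5.92, and arrays of the same group correlated at 0.913 to 0.916 across the 40466 probe sets with at least 2 arrays at log2 5 or more, and arrays of different groups at 0.852 to 0.911, so that the within-group values were only slightly above the highest of the others. With 2 arrays a group, precision is low throughout. A level in seedling RNA cannot tell fewer cells of a type from less RNA per cell.

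As background, plants make the aromatic amino acid phenylalanine in the plastid through the shikimate pathway. Phenylalanine ammonia-lyase turns it into cinnamate, the entry to the phenylpropanoid pathway, and 4-coumarate:CoA ligase activates the acids that follow for the making of lignin and other phenolics. Grasses also couple such acids to the xylan of their walls, and lignin, cellulose and xylan are laid down together in the secondary walls of vessels and fibres.

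Across the 53 probe sets the RNAi mean lay below the WT mean by differences of -6.45 to -1.80 log2 units, with a median difference of -3.00. Against the OX mean the differences ran from -6.42 to -1.69 (median -3.10). These values chose the members and are a description without a test. With RNAi means under log2 5 set to 5, 50 of the 53 were at least 4-fold lower in RNAi than in WT, 27 at least 8-fold and 6 at least 16-fold. The OX mean lay 0.47 below to 0.48 above the WT mean, above it for 35 members and below it for 18. The OX and WT arrays overlapped for 41 members, while both OX arrays lay above both WT arrays for 9 and below them for 3.

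**Figure D1:**
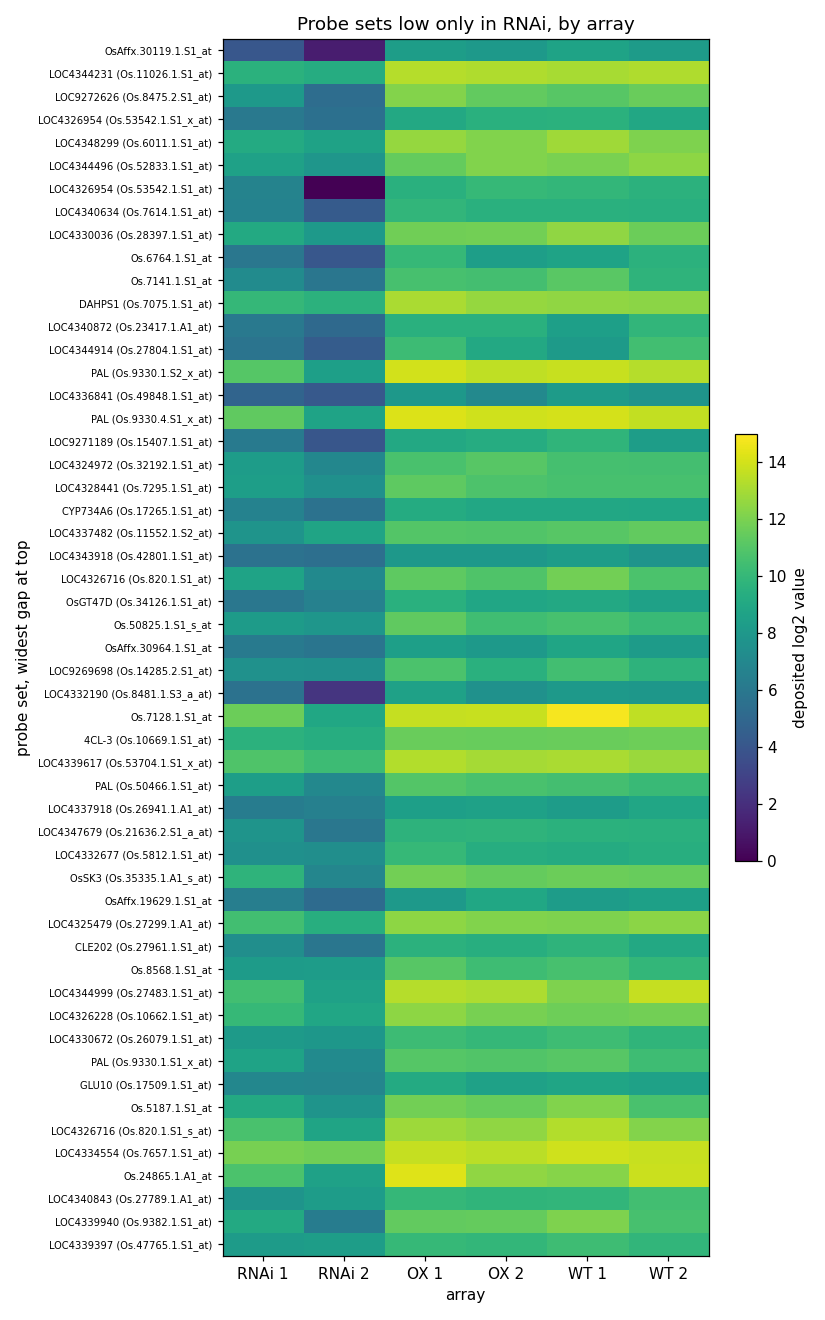
Deposited log2 value (colour, 0 to 15) of each of the 53 probe sets (rows, widest gap at the top) on the 6 arrays (columns, RNAi, OX and WT). The 2 RNAi columns are darker than the 4 others in every row, and RNAi replicate 2 is the darker of the 2 in 47 rows.

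Members spanned the bright part of the array. The WT mean was 8 to 10 for 20 of them, 10 to 12 for 19 and 12 or more for 14, and the median differences between RNAi and WT in these classes were -3.13, -2.67 and -3.43. They made up 0.239%, 0.297% and 0.553% of all probe sets in the same brightness classes. Most members stayed measurable in RNAi: the RNAi mean was 8 or more for 24 of them and under log2 5 for 4. For those 4, folds were counted from a floor of log2 5 and are given as lower bounds, while differences are those of the deposited values unless said otherwise. With the floor, the widest difference from WT was -4.79 and the median stayed -3.00.

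The chosen set is a slice of the bright probe sets that met the gap. Among 17295 probe sets with a WT mean of 8 or more, 215 met the gap of 1.5. Of these 215, the OX mean lay within 0.5 of the WT mean for 54, LAC4 included, at least 0.5 above it for 148 and at least 0.5 below it for 13. Over all 17295, it lay within 0.5 for 14170. A low OX array also narrows the gap, so nothing is read from the split of 148 and 13. With the other 2 conditions met and the same named families left out, 46 further probe sets had a gap of 1 to 1.5. Just inside the limit of the gap were LOC4339397 (1.501), LOC4339940 (1.53), LOC4340843 (1.54) and the unassigned probe set Os.24865.1.A1_at (1.54). Just outside it were the unassigned Os.11202.1.S1_at (1.49), LOC4348916 (1.47), LOC4333735 (1.44) and LOC4339878 (1.41).

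**Figure D2:**
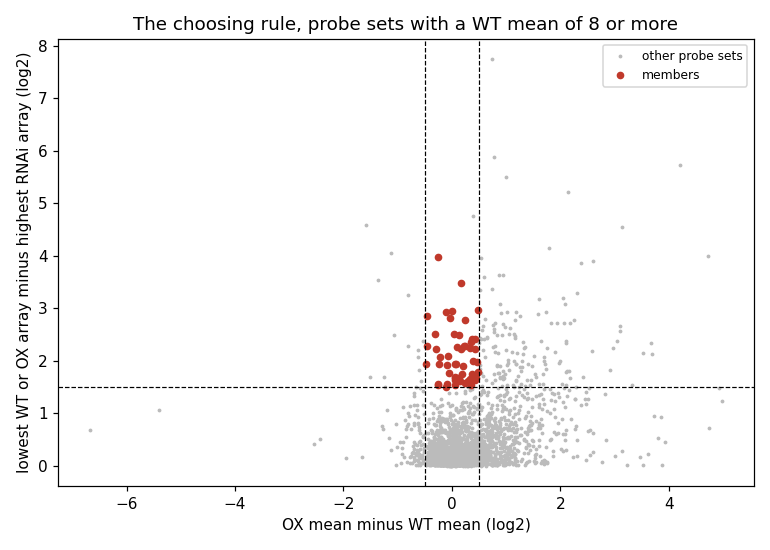
Gap between the lowest OX or WT array and the highest RNAi array (y, log2) against OX mean minus WT mean (x, log2) for probe sets with a WT mean of 8 or more and a gap above 0. Red points are the 53 members, dashed lines the limits of 1.5 and 0.5, and the 1 grey point inside the box is LAC4. More of the points above the limit lie on the right, with OX above WT (148), than on the left (13). A low OX array also narrows the gap, so nothing is read from this split.

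A limma fit over all 40466 probe sets, whose prior spread follows brightness, called 35 of the 53 members lower in RNAi than in WT at an adjusted p under 0.05, with 18 not past. Over all tested probe sets, 0.583% were called lower and 0.19% higher in this comparison. Against OX it called 49 of 53 lower, beside 3.31% of all tested. Between OX and WT it called 0 of 53, also at an unadjusted p under 0.05, beside 0.356% of all. Since the same contrasts chose the members, nothing is read from these counts. Without an intensity trend the fit called 1 probe set of the whole array between RNAi and WT and 5 between RNAi and OX.

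The shikimate pathway was represented by DAHPS1 and SK3. DAHPS1 (LOC4333014), a 3-deoxy-D-arabino-heptulosonate 7-phosphate synthase, catalyses the first step of the pathway. Its log2 values were 9.97 and 9.62 on the RNAi arrays, 13.11 and 12.63 on the OX arrays, and 12.50 and 12.39 on the WT arrays. The RNAi arrays lay close together and far under the others, 6.29-fold lower than WT on average. SK3 (LOC4337165), a shikimate kinase, had 9.74 and 6.89 in RNAi, 11.83 and 11.43 in OX, and 11.65 and 11.49 in WT. Here the RNAi arrays were nearly 3 log2 units apart. The RNAi mean was 9.53-fold lower than WT, which became 25.5-fold without RNAi replicate 1 and 3.56-fold without RNAi replicate 2.

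Other named genes of these enzymes, taken from the annotation after the members were known, are given as values without a test. DAHPS2 (LOC4343946) had 12.36 and 13.33 in RNAi, 12.97 and 12.90 in OX, and 12.84 and 13.04 in WT on one probe set, and its groups overlapped there and on its other probe set. SK1 (LOC4330732) had 9.47 and 9.07 in RNAi, 10.11 and 10.69 in OX, and 10.44 and 10.62 in WT. Both RNAi arrays were thus the lowest, with a gap of 0.64, as in 15.6% of all genes. SK2 (LOC4340547) overlapped between groups, at 9.14 and 8.58 in RNAi, 8.45 and 8.99 in OX, and 9.06 and 8.93 in WT.

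Phenylalanine ammonia-lyase had more members than any other gene. The gene named PAL (LOC4330034) has 5 probe sets on the array, of which 4 are members. The brightest of the 4, Os.9330.4.S1_x_at, had 11.36 and 8.67 in RNAi, 14.20 and 13.91 in OX, and 14.03 and 13.63 in WT. Os.9330.1.S2_x_at had 11.07 and 8.45 in RNAi, 13.98 and 13.58 in OX, and 13.71 and 13.34 in WT. On both, RNAi replicate 2 lay over 2 log2 units under RNAi replicate 1, which itself lay over 2 units under every other array. The RNAi means were 14.1-fold and 13.6-fold lower than WT. Without RNAi replicate 1 these folds were 35.7 and 33.8, and without RNAi replicate 2 they were 5.55 and 5.496.

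On the dimmer members of PAL, RNAi replicate 2 was again the lowest array and RNAi replicate 1 the next. Os.9330.1.S1_x_at had 8.70 and 7.17 in RNAi, 11.06 and 10.94 in OX, and 11.08 and 10.32 in WT, and Os.50466.1.S1_at had 8.38 and 7.03 in RNAi, 10.96 and 10.71 in OX, and 10.53 and 10.18 in WT. The probe set of PAL that is not a member, Os.9330.2.S1_a_at, had 13.01 and 10.52 in RNAi, 14.06 and 13.84 in OX, and 14.10 and 13.80 in WT. Its RNAi arrays were again the lowest, with a gap of 0.80. Probe sets whose names end in _x_at hold probes that can match other transcripts, and 3 of the 4 PAL members are of this kind, so that signal from near-identical genes cannot be told apart there.

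The gene next to PAL in the RefSeq gene order (assembly ASM3414082v1), LOC4330036, is a member as well and has no name in the annotation. Its member probe set had 9.12 and 8.08 in RNAi, 11.72 and 11.80 in OX, and 12.52 and 11.63 in WT, 11.1-fold lower in RNAi than in WT. Its other probe sets, Os.28397.1.S2_x_at and Os.28397.1.S3_at, missed the gap at 1.21 and 1.39, with both RNAi arrays below the 4 others on each. LOC4330032, 2 places before PAL, had 10.996 and 11.19 in RNAi, 13.82 and 13.39 in OX, and 12.76 and 12.96 in WT, a gap of 1.57, and was no member because its OX mean lay 0.74 above WT. PAL06 (LOC4330040), 3 places after PAL, overlapped between groups, at 7.70 and 10.23 in RNAi, 10.06 and 9.35 in OX, and 8.66 and 9.92 in WT. For PAL06 replicate 2 was thus the higher of the RNAi arrays, and for PAL the lower.

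Further along the phenylpropanoid pathway, 4-coumarate:CoA ligase was represented by 4CL3 (LOC4328485). It had 9.62 and 9.37 in RNAi, 11.57 and 11.53 in OX, and 11.59 and 11.67 in WT. Its replicates lay within 0.25 log2 units of each other in all 3 groups, and the RNAi mean was 4.40-fold lower than WT. Among the other 4CL genes, 4CL1 (LOC4345054) had 6.18 and 5.31 in RNAi, 7.13 and 7.07 in OX, and 7.44 and 7.22 in WT. 4CL5 (LOC4345717) had 7.02 and 7.56 in RNAi, 7.91 and 8.47 in OX, and 8.47 and 8.31 in WT, and the brighter probe set of 4CL4 (LOC4341718) 11.43 and 11.23 in RNAi, 12.82 and 12.49 in OX, and 12.005 and 12.01 in WT. On these probe sets of the 3 genes both RNAi arrays were the lowest, with gaps of 0.89, 0.35 and 0.58, as in 15.6% of all genes. On the dimmer probe set of 4CL4 the groups overlapped, at 4.67 and 5.82 in RNAi, 5.48 and 5.76 in OX, and 3.16 and 5.77 in WT. 4CL2 (LOC4330407) overlapped between groups, at 10.90 and 10.12 in RNAi, 10.58 and 11.43 in OX, and 11.88 and 10.47 in WT.

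**Figure D3:**
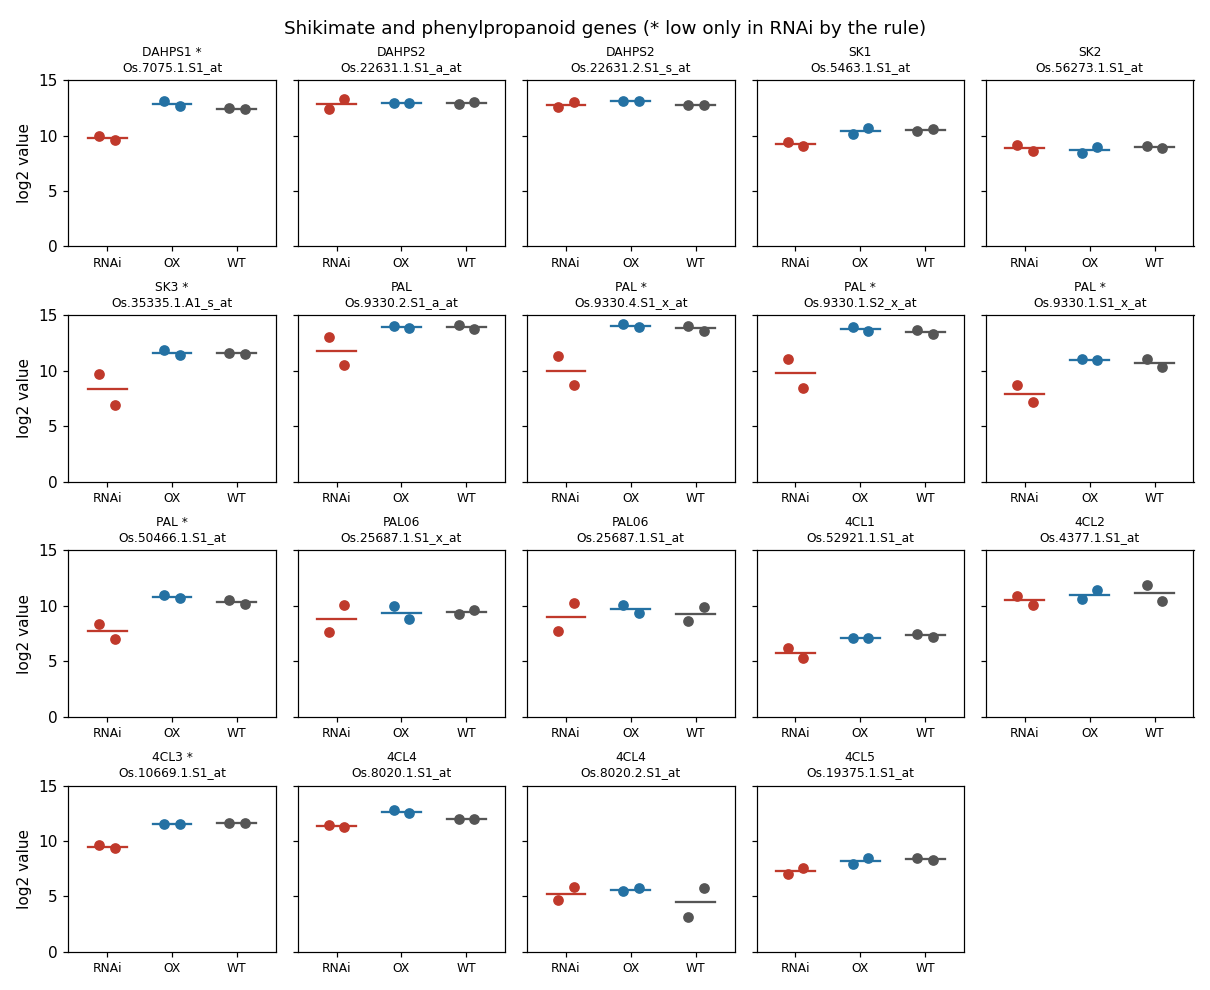
Log2 values (y, 0 to 15) of each probe set of the shikimate, PAL and 4CL genes, with RNAi, OX and WT from left to right, points for the 2 arrays and bars for their mean; asterisks mark members. In DAHPS1, SK3, PAL and 4CL3 the RNAi points lie under all others, while those of DAHPS2, SK2, PAL06 and 4CL2 overlap with the other groups.

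Named genes of wall polysaccharides were OsGT47D and GLU10. OsGT47D (LOC4327240), of a glycosyltransferase family that includes xylan-synthesising enzymes, had 5.94 and 6.58 in RNAi, 9.52 and 8.87 in OX, and 9.06 and 8.57 in WT, 5.87-fold lower in RNAi than in WT. RNAi replicate 1 was the lower one here. GLU10 (LOC4330667), an endo-1,4-beta-glucanase, had 6.96 and 6.86 in RNAi, 9.17 and 8.56 in OX, and 8.84 and 8.58 in WT. Its fold of 3.49 was the smallest among the 53 probe sets. LOC4330672, 5 places from GLU10 in the gene order, was also a member, at 8.17 and 7.92 in RNAi, 10.30 and 9.97 in OX, and 10.36 and 9.80 in WT. The 3 genes between them that have probe sets had differences between RNAi and WT of -0.36, -0.13 and -0.26.

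Genes of hormone and peptide signals were CYP734A6 and CLE202. CYP734A6 (LOC4325222), a cytochrome P450 that inactivates brassinosteroids, had 6.67 and 5.65 in RNAi, 9.22 and 8.98 in OX, and 8.98 and 8.89 in WT, 6.84-fold lower in RNAi. CLE202 (LOC4329179), also called FOS1, encodes a peptide of the CLE family, and what it does in these seedlings was not tested. It had 7.40 and 5.87 in RNAi, 9.64 and 9.39 in OX, and 9.75 and 9.07 in WT, 6.85-fold lower in RNAi (11.6-fold without RNAi replicate 1 and 4.04-fold without RNAi replicate 2). In both genes each RNAi array lay under all 4 others, with RNAi replicate 2 the lower.

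Among the members, most of which lack a gene name, the widest gaps belonged to probe sets without a name. LAC4, left out by its name, had a wider gap of 4.76. OsAffx.30119.1.S1_at, with no listed gene, had 4.09 and 1.18 in RNAi, 8.36 and 8.06 in OX, and 8.72 and 8.21 in WT. It was at least 11.04-fold lower in RNAi than in WT, counted from the floor of log2 5. LOC4344231 had 9.58 and 9.32 in RNAi, 13.36 and 13.23 in OX, and 13.06 and 13.19 in WT. This gene combined a high level with close replicates and a 12.8-fold lower mean in RNAi than in WT. LOC9272626 had 8.13 and 5.37 in RNAi, 12.23 and 11.38 in OX, and 11.10 and 11.56 in WT, 23.9-fold lower in RNAi than in WT. This became 62.1-fold without RNAi replicate 1 and 9.21-fold without RNAi replicate 2.

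LOC4326954 contributed 2 members, Os.53542.1.S1_x_at with 6.04 and 5.52 in RNAi, 9.04 and 9.50 in OX, and 9.56 and 8.98 in WT, and Os.53542.1.S1_at with 6.68 and 0 in RNAi, 9.50 and 10.02 in OX, and 9.93 and 9.66 in WT. The second is listed at exactly 0 in RNAi replicate 2, where the first probe set of the same gene has 5.52, so its difference of -6.45 is set by that 1 value. Counted from the floor it was at least 27.7-fold lower in RNAi than in WT, and 8.65-fold without RNAi replicate 2. LOC4326954 lies 10 places from OsGT47D in the gene order. LOC4327242 between them had 8.46 and 7.46 in RNAi, 11.25 and 11.02 in OX, and 9.87 and 9.80 in WT on its brighter probe set, with OX 1.30 above WT.

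LOC4348299 had 9.18 and 8.62 in RNAi, 12.61 and 12.15 in OX, and 12.87 and 12.11 in WT (12.02-fold lower in RNAi than in WT). LOC4344496 had 8.58 and 7.88 in RNAi, 11.43 and 12.13 in OX, and 12.01 and 12.47 in WT (16.1-fold). LOC4340634 had 6.66 and 4.32 in RNAi, 9.90 and 9.53 in OX, and 9.52 and 9.44 in WT (15.9-fold). In these 3 genes the higher RNAi array lay 2.77 to 2.93 units under the lowest other array. For LOC4340634 the fold was 7.03 without RNAi replicate 2, and at least 22.3 without RNAi replicate 1, since replicate 2 lies under log2 5. Os.6764.1.S1_at, with no listed gene, completed the 10 widest gaps, at 5.92 and 4.08 in RNAi, 10.04 and 8.43 in OX, and 8.73 and 9.65 in WT.

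Some members were abundant in all groups. LOC4334554 had 11.90 and 11.72 in RNAi, 13.70 and 13.45 in OX, and 13.91 and 13.76 in WT, the highest RNAi mean of the 53 (11.81). LOC4339617 had 10.87 and 10.28 in RNAi, 13.30 and 12.96 in OX, and 13.08 and 12.77 in WT. Os.7128.1.S1_at, with no listed gene, had the highest WT mean (14.17), with 11.62 and 8.91 in RNAi, 13.66 and 13.75 in OX, and 14.80 and 13.55 in WT. In LOC4336841 both RNAi arrays lay under log2 5, at 4.81 and 4.21, beside 8.02 and 7.09 in OX and 8.25 and 7.78 in WT, at least 8.09-fold lower in RNAi than in WT.

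LOC4326716 contributed 2 members with like patterns. Os.820.1.S1_at had 8.72 and 7.11 in RNAi, 11.28 and 10.86 in OX, and 11.78 and 10.78 in WT, and Os.820.1.S1_s_at had 10.68 and 8.76 in RNAi, 12.82 and 12.51 in OX, and 13.27 and 12.24 in WT. LOC4332190 had the second lowest RNAi mean of a member with a listed gene, at 5.64 and 2.29 in RNAi, 8.59 and 7.58 in OX, and 8.09 and 7.92 in WT (at least 8.02-fold lower in RNAi than in WT, and 5.13-fold without RNAi replicate 2). LOC4339397, at the limit of the gap, was 3.496-fold lower in RNAi than in WT, and Os.24865.1.A1_at, also at that limit, had a WT mean of 13.03. Leaving out the members at that limit and LOC4343918, described below, the further members without a gene name had RNAi means of 5.05 to 9.92 and WT means of 8.39 to 12.91. Some of them have no listed gene. Their folds below WT ran from 3.66, in LOC4332677, to 18.7, in LOC4344914 (11.4 without RNAi replicate 2).

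In the members, though not over all bright probe sets, the RNAi replicates differed from each other more than the other replicates did. The rule set no limit on the lower RNAi array, so nothing is read from this wider spread. The comparison below is also not matched for RNAi level, as the members' median RNAi mean was 7.91. The median SD of the members was 0.74 in RNAi, 0.24 in OX and 0.35 in WT, beside 0.16 in RNAi, 0.15 in OX and 0.18 in WT over all 17295 probe sets with a WT mean of 8 or more. RNAi replicate 2 was the lower array for 47 of the 53 members (88.7%), against 46.9% of those 17295 probe sets. The median difference of RNAi replicate 2 minus replicate 1 was -1.04 in the members and 0.02 over the same 17295. Leaving out 1 of the RNAi arrays moved the fold by over 1.5 times for 25 members. The RNAi arrays lay over 1 log2 unit apart for 29 members, the OX arrays for 5 and the WT arrays for 11. Replicate 1 was the lower RNAi array for 6 members, LOC4337482 (7.75 and 8.73 in RNAi) by the most. Because the rule measured the gap from the higher RNAi array, replicate 1 set it for 47 members. No test was run on this difference between the 2 RNAi arrays, and what the plants of the replicates shared is not given in the labels.

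**Figure D4:**
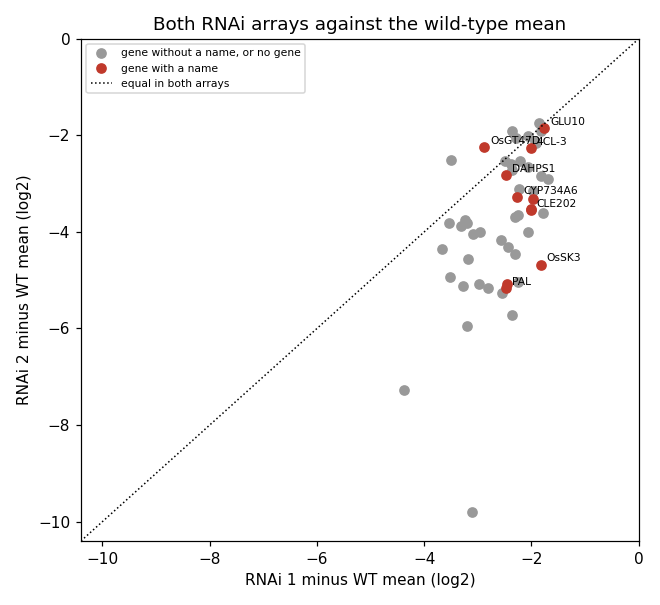
RNAi replicate 1 minus the WT mean (x, log2) against RNAi replicate 2 minus the WT mean (y, log2) for the 53 members; red points have a gene name, each named once. Of all points, 47 lie below the dotted line of equality, PAL and SK3 far below it, DAHPS1, 4CL3 and GLU10 close to it; the lowest point is the probe set listed at 0.

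Other probe sets of the same genes show how far the pattern holds across a transcript, although they measure the same arrays. For 7 of the 38 genes the array holds 10 probe sets that are not members. The RNAi mean was below the WT mean on 9 of the 10, and both RNAi arrays lay below the 4 others on 7, beside 11.9% of all tested probe sets. On the 6 of them with a WT mean of 8 or more, both RNAi arrays were the lowest on all 6. Of the 9 that could be tested, 2 were called between RNAi and WT (limma), beside 0.773% of all, and both belong to LOC4330036. Their calls passed in 1 and 2 of 6 refits, each without a single array (adjusted p = 0.0113 to 0.329 and 0.00285 to 0.232).

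LOC9272626 had a second probe set at 8.34 and 5.63 in RNAi, 12.01 and 11.20 in OX, and 10.74 and 11.27 in WT, which the rule left out because the OX mean was 0.60 above WT. The other probe sets of LOC4332190 had differences between RNAi and WT of -1.03 and -1.16, with OX 0.88 and 0.64 above WT, while its member probe set, whose RNAi mean lies under log2 5, had a difference of -3.00 counted from that floor. LOC4343918 disagreed: its member had 5.67 and 5.46 in RNAi, 7.98 and 7.97 in OX, and 8.34 and 7.75 in WT, while Os.15402.2.S1_at had 7.40 and 7.19 in RNAi, 6.92 and 6.15 in OX, and 7.09 and 6.53 in WT. The other probe sets of LOC4347679 and LOC4337482 had WT means under 8.

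**Figure D5:**
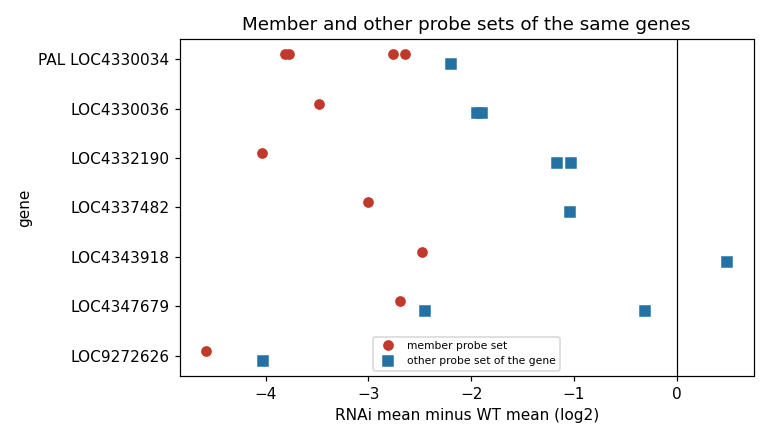
RNAi mean minus WT mean (x, log2) for the 7 member genes (rows) that have other probe sets; red circles are member probe sets and blue squares the others. The squares lie to the right of the circles of the same gene, and the 1 of LOC4343918 lies above 0 (0.49).

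Gene lists of related functions, taken by name from the annotation with 1 probe set per gene and members left out, place these genes among their families. Over all 16691 genes, 0.971% were called lower and 0.246% higher in RNAi than in WT (limma). Of 18 monolignol synthesis genes other than 4CL3, 1 was lower, 0 higher and 17 did not pass, with a median difference of -0.15 beside 0.02 over all genes. The 1 was CAD2 (LOC4328552), a cinnamyl alcohol dehydrogenase, at 10.42 and 9.80 in RNAi, 12.72 and 12.32 in OX, and 11.95 and 11.97 in WT (log2 difference -1.85 ± 0.24 SE, limma adjusted p = 0.0218). It passed in 2 of 6 such refits, those without RNAi replicate 1 and without OX replicate 2 (adjusted p = 0.00562 to 0.202). PAL itself is not in that list, whose name pattern asks for a number after PAL.

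Of 8 xylan and hemicellulose glycosyltransferases other than OsGT47D, 0 were called in either direction between RNAi and WT (limma, 5 at an unadjusted p under 0.05), and both RNAi arrays were below all 4 others in 6, beside 15.6% of all genes. Their median difference was -0.80, and 4 of the 8 are also in the secondary wall list described further on. Against OX, 3 of the 8 were called lower, beside 5.72% of all genes. Among 13 brassinosteroid and gibberellin genes other than CYP734A6, 0 were called between RNAi and WT (limma, 4 at an unadjusted p under 0.05, median -0.04), and among 26 other cytochrome P450s 1 was lower and 0 higher. That 1 was CYP714C2 (LOC4351346), at 7.62 and 7.496 in RNAi, 9.56 and 9.79 in OX, and 9.21 and 9.03 in WT (limma adjusted p = 0.0326). Of the 6 refits its call passed only in that without RNAi replicate 1 (adjusted p = 0.0427 to 0.238).

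Of 10 tubulin genes, the subunits of microtubules, 2 were lower and 0 higher in RNAi than in WT, with a median of -0.87. At an unadjusted p under 0.05 (limma) there were 7. Both RNAi arrays lay below all 4 others in 6 of the 10, beside 15.6% of all genes. Against OX 6 were called lower, beside 5.72% of all genes. TUB4 (LOC4327550) had 7.81 and 7.88 in RNAi, 12.90 and 11.88 in OX, and 10.26 and 10.30 in WT, so that OX lay 2.11 above WT, unlike the members. TUB5 (LOC4328420) had 10.40 and 10.34 in RNAi, 13.75 and 13.06 in OX, and 11.95 and 11.996 in WT. Both passed in 3 of the 6 refits and lost the call without RNAi replicate 2 and without either WT replicate. Elsewhere in the wall and growth lists 1 gene was lower in RNAi than in WT among 19 cellulose synthase-like genes (CSLF6, -2.03), 21 expansins (EXPB3, -2.86) and 26 beta-glucosidases (BGLU3, -3.12), and 1 of 42 homeobox genes was higher (Hox22, 1.23). Of the 6 refits the call of CSLF6 and that of EXPB3 passed only in the 1 without RNAi replicate 1, that of BGLU3 passed in 4, and that of Hox22 in 0. Between RNAi and WT limma called 0 of 32 cyclins and cell cycle kinases, 0 of 21 replication and histone genes, 0 of 9 growth-regulating factors and 0 of 32 auxin genes other than Aux/IAA, while 5, 2, 1 and 4 of these had an unadjusted p under 0.05. It also called 0 of 28 aquaporins (3 at an unadjusted p under 0.05), 0 of 6 COBRA-like and brittle culm genes (2), 0 of 20 bHLH and MYB factors (3), 0 of 7 NAC factors (2), 0 of 81 zinc finger and bZIP factors (10), 0 of 5 receptor-like kinases (1), 0 of 8 lipid transfer and cuticle genes (1) and 0 of 1 xyloglucan endotransglucosylase (1).

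Markers of cell types differed unevenly between the groups. The secondary wall list held 9 genes, none of them a member. Both RNAi arrays lay below all 4 others in 8 of them, beside 15.6% of all genes. CESA4, CESA7 and CESA9, the cellulose synthases of the secondary wall, define it. CESA4 had 8.38 and 6.93 in RNAi, 12.65 and 11.89 in OX, and 11.77 and 11.72 in WT, and CESA7 had 8.90 and 5.33 in RNAi, 12.91 and 12.19 in OX, and 11.58 and 12.01 in WT. CESA9 had 6.79 and 4.63 in RNAi, 10.65 and 9.70 in OX, and 9.23 and 9.82 in WT. As in most members, RNAi replicate 2 was the lowest array in all 3 genes. The list's median difference between RNAi and WT was -2.76. For each marker list, the signals of the tested genes were also summed off the log2 scale and given as the log2 of that sum. The brightest genes therefore weigh most in it. For the secondary wall list it was 11.63 to 12.26 in RNAi, 14.21 to 14.83 in OX, and 13.85 to 13.95 in WT. Of the 9 genes, CESA4 alone was called lower than WT (limma adjusted p = 0.0120), while 8 had an unadjusted p under 0.05. The call of CESA4 was lost without either WT replicate. Against OX 7 of 9 were called lower, beside 5.72% of all genes. The part of secondary wall cells in the low values of the members was not tested.

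Other marker lists lay closer together. CAB2R of the green leaf list, a chlorophyll-binding protein of the light-harvesting complex, lay at 15.61 to 15.84 on every array. The 14 green leaf genes summed to 18.24 to 18.39 in RNAi, 18.19 to 18.24 in OX, and 18.26 to 18.48 in WT. Among them PORA, a protochlorophyllide reductase, was called lower than WT (-4.60), a call that passed only without RNAi replicate 1 of the 6 refits. The dividing cell list summed to 10.19 to 10.46 in RNAi, 10.32 to 10.62 in OX, and 10.43 to 10.57 in WT. The root list summed to 13.97 to 14.32 in RNAi, 13.69 to 14.15 in OX, and 14.03 to 14.33 in WT. Its brightest gene on every array was Lsi6 (12.88 to 13.65), which weighs most in this sum. OsCASP1 of the same list lay at 4.12 to 5.96, so the sum says little of the dimmer root genes. The list was matched by name, so its sum is not read as an amount of root tissue. The meristem list summed to 13.13 to 13.88 in RNAi, 12.83 to 12.90 in OX, and 13.17 to 13.26 in WT. That sum mostly follows LOG, at 12.86 and 13.75 in RNAi, 12.54 and 12.61 in OX, and 12.97 and 12.91 in WT. Of the 5 tested genes of this list, 3 averaged under log2 5, so the sum is not read as an amount of meristem. The seed storage list summed to 12.29 on both RNAi arrays, 12.91 to 13.11 in OX, and 12.66 to 12.73 in WT. That sum is led by 4CL4, which is no seed storage gene, was matched through a synonym and has its values given above. The brightest other gene, GLUA-2, had 10.92 and 11.12 in RNAi, 10.32 and 10.63 in OX, and 11.04 and 10.96 in WT. For GLUA-2 RNAi thus lay above OX. The defining root gene Lsi2 and the meristem gene OSH1 were not kept by the filter on low values. In the dividing cell, root, meristem and seed storage lists limma called 0 genes between RNAi and WT, and at an unadjusted p under 0.05 there were 0, 1, 0 and 2.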

How the data were processed

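Transcripts were measured on 6 Affymetrix rice arrays, 2 per group. The deposited table holds log2 values, made with RMA, per the submitters' processing notes, which give no version. Unlike the usual output of RMA, each array holds 329 to 614 values of exactly 0. The table was used as deposited, without 187 control probe sets. Gene names came from the platform annotation, updated through RefSeq (assembly ASM3414082v1). A probe set was tested when at least 2 of 6 arrays reached log2 5 (40466 of 57194). Comparisons used limma 3.58.1 in R 4.3.3 over all 3 groups with an intensity trend and Benjamini-Hochberg adjustment at 0.05, checked on simulated data. The simulated data gave each probe set the median spread of its brightness class, so this check could not test the trend. RNAi means under log2 5 were set to 5 for folds. The members, gene lists, pathway genes and the choice of trend were all made with earlier results of these data known. Named are the members with a gene name, the 10 widest gaps, 4 probe sets on each side of the limit, other probe sets of member genes, and up to 4 called genes per list. Members described beyond these, and the neighbouring and pathway genes, were chosen after their values were seen. One list pattern misses the bare name PAL, the seed list takes in 4CL4 and the green leaf list OsPYL11 through synonyms, and the fasciclin list matched no gene. Alternatives covered scaling, filters, limits, the trend, a replicate block and each array left out. No sequences were used here.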

Additional observations from a re-analysis of the deposited data

Results flagged for a closer look

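Among the control probe sets, which enter no comparison, 2 of 64 reporter probe sets had an array over log2 8. Reporter probe set A averaged 13.43 ± 0.30 in RNAi, 4.34 ± 1.06 in OX and 4.33 ± 1.17 in WT (log2, SD, n = 2 each). Reporter probe set B averaged 13.16 ± 0.35 in RNAi, 14.19 ± 0.32 in OX and 3.05 ± 0.11 in WT. Each of these probe sets thus stood above its WT level in transgenic arrays, A in RNAi and B in RNAi and OX. A was high on the same 2 arrays on which the members were low. The relation of these signals to the low values of the members was not tested.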

How the results depend on the processing

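The number of members, 53, depended on the limits of the rule: a gap of 1 gave 99, a gap of 2 gave 24, and an OX limit of 1 gave 108. Leaving out 1 array gave 39 (without OX replicate 2) to 165 (without RNAi replicate 1). Quantile normalisation kept 47 of the 53 among 49, and centring on array medians 44 among 47. A WT mean of at least 7 gave 75, and of at least 9 gave 43. Setting values under log2 5 to 5 first, an alternative chosen after seeing the data, gave 53. The calls of limma rested on the intensity trend: without it 1 probe set was called between RNAi and WT instead of 313, 5 between RNAi and OX instead of 1725, and 0 between OX and WT instead of 144 (limma, 3301 at an unadjusted p under 0.05). With only the 4 arrays compared, 141 were called between RNAi and WT and 255 between OX and WT. Leaving out 1 array gave 16 (without WT replicate 2) to 716 (without RNAi replicate 1) calls between RNAi and WT, 276 (without OX replicate 1) to 1830 (without RNAi replicate 1) between RNAi and OX, and 0 (limma without OX replicate 1, 2307 at an unadjusted p under 0.05) to 223 (without RNAi replicate 1) between OX and WT. Same-numbered arrays did not deviate together (r = -0.0098, -0.033 and 0.037 over the 3 pairs of groups), and with the replicate block 393, 1595 and 109 probe sets were called. For the 18 member probe sets followed, scaling moved the difference between RNAi and WT by at most 0.099, and 0 differences reversed. The largest move without an array was 3.34, in the LOC4326954 probe set listed at 0. The planned search for promoter motifs was not run, since no promoter sequences were used here. The cause of these changes was not tested.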
